A study of Mus musculus with 2 samples.

Results

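The clustered protocadherins are cell-surface cadherin-like proteins whose genes stand in tandem on mouse chromosome 18 as the α, β and γ clusters. The genes taken here were all protein-coding genes of that chromosome with the symbols Pcdha, Pcdhb, Pcdhga, Pcdhgb or Pcdhgc in GENCODE M21, 57 of the 21938 protein-coding gene models examined. The α cluster held 14 of them, the β cluster 22 and the γ cluster 21, the last made up of 12 γA, 6 γB and 3 C-type genes. Pcdhac1 and Pcdhac2 of the α cluster belong with Pcdhgc3, Pcdhgc4 and Pcdhgc5 to the C-type, 5 genes in all. GENCODE M21 gives the symbol Pcdha11 to a pair of neighbouring gene models, which are counted here as separate members.

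Open chromatin was mapped by ATAC-seq, in which the Tn5 transposase cuts accessible DNA, in regulatory T cells, the Foxp3-dependent lymphocytes that restrain immune responses. The cells were primary cells of 1 adult male of 4 months from a Foxp3CreERT2 x Rosa26YFP cross, which pairs a tamoxifen-inducible Cre at the Foxp3 locus with a reporter of Cre activity at the Rosa26 locus. Their origin is given in the labels as bone marrow hematopoietic cells, and no other genotype or condition was sampled. Both libraries are technical replicates of that 1 biological replicate and entered the same peak lists, so no spread between animals or libraries can be given and nothing was tested. All 7 regulatory T cell markers examined (Foxp3, Il2ra, Ctla4, Ikzf2, Tnfrsf18, Icos and Tigit) had a summit of the thresholded list within 1 kb of a start site. So did all 8 T cell markers, 1 of 7 markers of other lymphocytes (Cd8b1) and 0 of 4 myeloid markers, against 52.2% of all protein-coding genes. The summits of Foxp3, Ikzf2 and Cd3d lay 772, 862 and 697 bp downstream of an annotated start site, and the Tnfrsf18 signal was 2.69. For Ikzf2 and Cd3d that start site was inside the gene, and the summits lay 3950 and 4863 bp from the 5′ end. In the pseudoreplicated list the natural killer cell marker Klrb1c (signal 3.13) joined Cd8b1, for 2 of 7, and the myeloid markers stayed at 0 of 4. The share of all protein-coding genes in that list was 57.3%.

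In the α and γ clusters each gene consists of its own large first exon, which encodes the extracellular part, spliced to 3 exons that all genes of the cluster share and that encode a common cytoplasmic tail. The β genes have no such shared exons. Each first exon has its own promoter, and in neurons single cells use a small, largely random choice of these promoters, which gives neighbouring cells different surface identities. CTCF and cohesin bring a chosen promoter to distal enhancers, and DNA methylation and SMCHD1 are known to keep promoters of these clusters silent. The C-type genes are used less randomly in neurons than the others.

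A gene was counted as having a promoter peak when a listed summit lay within 1 kb of the start site (TSS) of any of its transcripts. Of the 57 clustered protocadherin genes, 6 had one in the list thresholded on the irreproducible discovery rate (IDR), or 10.5% (exact 95% interval 3.96 to 21.5%), against 52.2% of all protein-coding genes. All 6 were γ genes: Pcdhga7, Pcdhgb4, Pcdhgb5, Pcdhgb6, Pcdhgc3 and Pcdhgc4. No α or β gene had a promoter peak in any of the 3 deposited lists. In the longer pseudoreplicated list, 13 members had one (22.8%, 12.7 to 35.8%), again all of the γ cluster, against 57.3% of all protein-coding genes. Intervals cover counting error only. The depth of the libraries is unknown, so a promoter without a listed peak was not detectably open at this depth, and a site open in few cells cannot be told apart from one weakly open in many.

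**Figure D1:**
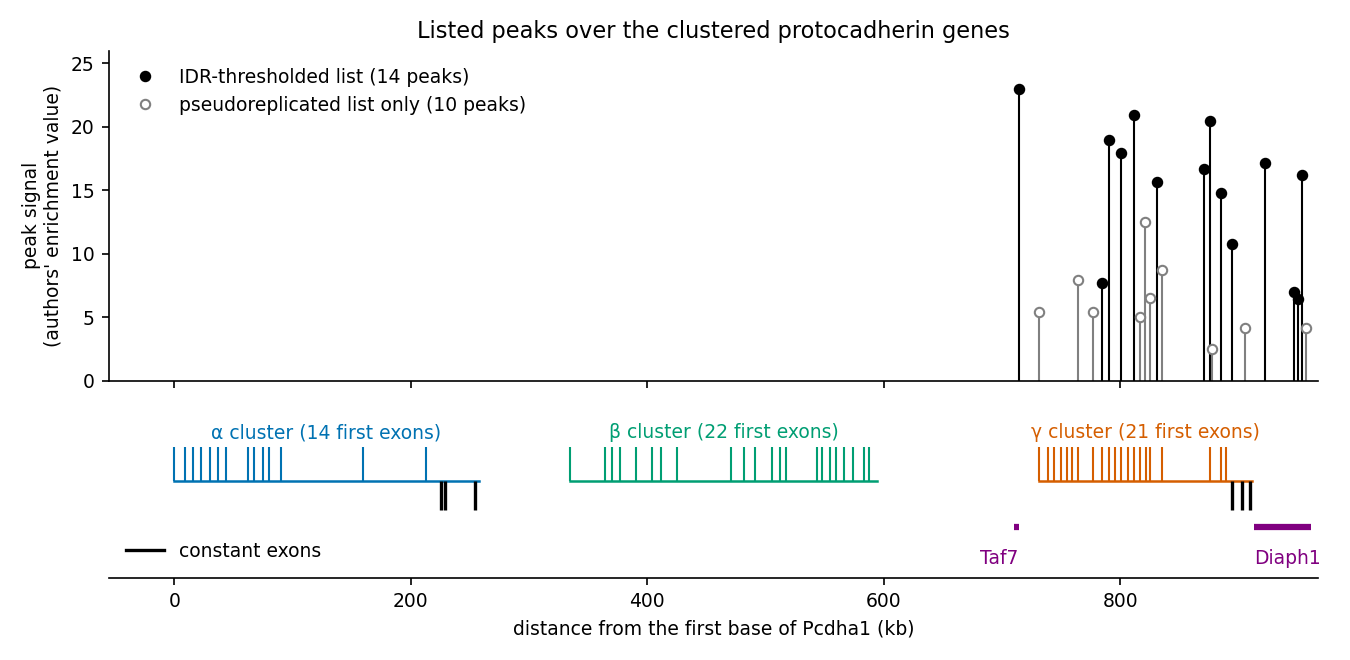
Upper panel: signal of each listed peak (y axis, the authors' enrichment value, no unit) against the distance of its summit from the first base of Pcdha1 in kb. Filled points are peaks of the IDR-thresholded list and open points peaks of the pseudoreplicated list alone. Lower panel: first-exon start sites of the members (upward ticks), shared constant exons (downward black ticks) and the genes Taf7 and Diaph1. No point stands over the α or β cluster, and the 14 thresholded peaks lie from Taf7 rightwards.

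The α cluster runs from 36930184 to 37187661 of chromosome 18 (mm10), from Pcdha1 on the upstream side to the last shared exon. With 50 kb on either side it spans 357.5 kb, and 0 peaks were listed there in the thresholded, the pseudoreplicated or the ranked list. Pcdha1, the first member, lies 127.2 kb from the nearest thresholded summit. Pcdhac1 and Pcdhac2, the C-type members of the cluster, lie 287.0 and 340.5 kb from one. The 3 shared exons (37156155-37156213, 37159265-37160705 and 37184946-37187657), which all 14 α members use, have their nearest thresholded summit 353.1 to 381.9 kb away. Enhancers of the α promoters have been described near these exons in mouse neurons, and no listed peak lay there.

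The β cluster runs from 37264938 (Pcdhb1) to 37524479 (the end of Pcdhb22), and its window of 359.5 kb also held 0 peaks in each of the 3 lists. Pcdhb1, the first member, lies 378.8 kb from the nearest thresholded summit. Pcdhb22, the last, lies 125.9 kb from one, the promoter peak of Taf7. These distances were the greatest and the smallest of the 36 α and β members, whose median was 198.7 kb. Of all protein-coding genes, 18.1% had their 5′ end at least as far from a thresholded summit as Pcdhb22, and the median of all was 1.99 kb.

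Both clusters lie in a single stretch without any listed peak, from 36803141 to 37643694, which is 840.6 kb long in all 3 lists. It holds the 5′ ends of 40 protein-coding gene models: the 36 α and β members, the long models Gm42416, Gm37013 and Gm37388 that run from the α into the γ cluster, and Slc25a2, a mitochondrial transporter of basic amino acids. Among the 34589 stretches between thresholded peaks, whose median length was 14.7 kb, 545 were longer, but only 17 held more protein-coding 5′ ends. Of those 17, 10 held mostly chemoreceptor genes. Shorter windows without a peak were common: of 7611 windows of the α window's length (357.5 kb) across the genome, 44.4% held no thresholded peak. Among the 136 such windows with at least as many protein-coding 5′ ends as the α window (17), 21 held none. For the β window with its 22 protein-coding 5′ ends, 4 of 45 such windows held none. The peak that borders the stretch upstream is small (36802903-36803140, signal 4.77), 9.15 kb from the 5′ end of Zmat2.

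The γ cluster (37661793 to 37841873) stood apart from its neighbours. With its flanks it held 14 thresholded peaks in 280.1 kb, 49.99 per Mb, against 11.2 per Mb on the whole of chromosome 18 and 12.7 per Mb over all chromosomes. These peaks covered 3.56% of the γ window, against 0.833% of chromosome 18. In the pseudoreplicated list the γ window held 24 peaks, 85.7 per Mb, against 18.9 per Mb on chromosome 18. Of 9719 windows of the same length along the genome, 94.6% held 14 thresholded peaks or fewer. Among the 13 of these windows with at least as many protein-coding 5′ ends as the γ window (23), 3 held 14 or fewer. Of the 14 peaks, 6 were promoter peaks of members, 4 lay inside Diaph1, and the others were at Taf7, at Pcdhgb8, between the first exons, and over the first shared exon.

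The γA and γB first exons are interspersed along 103.8 kb and are named for 2 branches of related sequence. Against 52.2% of all protein-coding genes, only Pcdhga7 of the 12 γA genes had a thresholded promoter peak (chr18:37714607-37715038). Its summit lay 10 bp upstream of the TSS with a signal of 7.72, above that of 17.4% of all thresholded peaks, and its −log10 p of 23.3 lay above that of 0.925% of them. Its −log10 IDR of 1.40 was just inside the threshold, since the lowest value in the thresholded list was 1.301. Pcdhga7 was thus the weakest of the 6 members with a thresholded promoter peak, and the antisense gene Gm37165 overlaps it and the Pcdhgb4 start.

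Of the 6 γB genes, Pcdhgb4, Pcdhgb5 and Pcdhgb6 had thresholded promoter peaks, a share of 50% that is near the 52.2% of all protein-coding genes. The Pcdhgb4 peak (chr18:37720164-37720803) had its summit 25 bp upstream of the TSS and a signal of 18.99. The Pcdhgb5 peak (chr18:37730699-37731317) had its summit 63 bp upstream and a signal of 17.9. The Pcdhgb6 peak (chr18:37741869-37742513) had its summit 59 bp upstream and a signal of 20.97, the highest of any member. These signals lay above those of 78.1%, 73.8% and 85.0% of all thresholded peaks in that order. Their −log10 p lay above that of 40.6% of thresholded peaks at Pcdhgb4, 37.6% at Pcdhgb5 and 59.3% at Pcdhgb6, so on that measure Pcdhgb4 and Pcdhgb5 were below the median. The median signal of a promoter peak over all protein-coding genes was 17.3.

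Pcdhgb8 stands in the same row of first exons and is annotated in GENCODE M21 as a polymorphic pseudogene, so it is no member. It had a thresholded peak of the same kind (chr18:37761265-37761960), with a summit 138 bp upstream of its TSS and a signal of 15.7. The γB genes nearest the upstream end, Pcdhgb1 and Pcdhgb2, had no peak in any list.

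**Figure D2:**
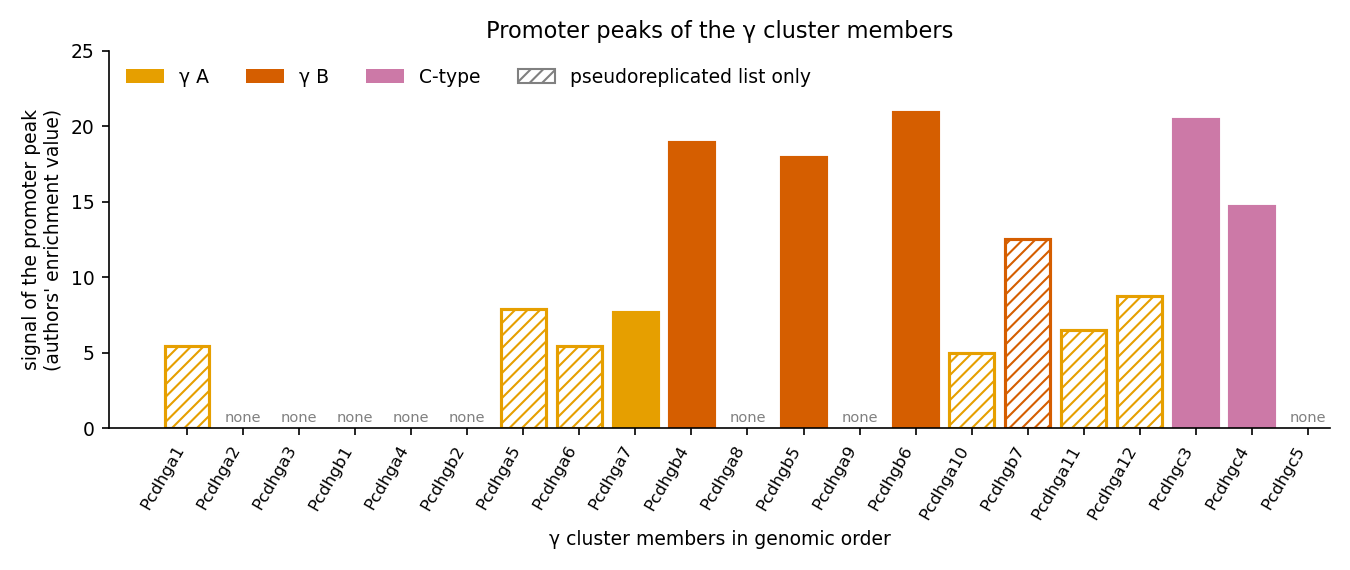
Signal of the promoter peak (y axis, the authors' enrichment value, no unit, from 0) of each of the 21 γ members in genomic order. Solid bars are peaks of the IDR-thresholded list, hatched bars peaks of the pseudoreplicated list alone, and "none" marks members without a listed promoter peak. The tallest bars are Pcdhgb6 (20.97) and Pcdhgc3 (20.5).

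The C-type genes Pcdhgc3 and Pcdhgc4 had the widest of the members' peaks. The Pcdhgc3 peak (chr18:37805924-37807120) was 1197 bp wide, with its summit 20 bp upstream of the TSS, a signal of 20.5 and a −log10 p of 324.6. This was the highest −log10 p of any member, above that of 80.8% of thresholded peaks. The Pcdhgc4 peak (chr18:37814491-37815522) was 1032 bp wide, with its summit 58 bp upstream of an annotated TSS inside the gene, a signal of 14.8 and a −log10 p of 176.6. Pcdhgc5, the last member of the γ cluster, had no promoter peak in any list, although its 5′ end lies 4434 bp downstream of that of Pcdhgc4. Of the C-type genes, 2 of the 3 in the γ cluster and 0 of the 2 in the α cluster had a thresholded promoter peak. The share of all protein-coding genes was 52.2%, and with so few C-type genes no difference between the clusters is read from these counts.

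All 6 thresholded summits lay upstream of the start site they were assigned to, by 10 to 63 bp, as did 76.1% of the promoter summits of all protein-coding genes. The 6 peaks were 432 to 1197 bp wide with a median of 642.5 bp, against a median of 996 bp for promoter peaks of all protein-coding genes. Their median signal was 18.5, against 17.3 for promoter peaks of all protein-coding genes.

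A further 7 γ members had a promoter peak in the pseudoreplicated list alone. Pcdhgb7 was the strongest of them with a signal of 12.5 and a −log10 IDR of 1.11, outside the threshold. The others were all γA genes, namely Pcdhga1, the first member of the cluster, with Pcdhga5, Pcdhga6, Pcdhga10, Pcdhga11 and Pcdhga12. Their signals ran from 5.02 at Pcdhga10 to 8.73 at Pcdhga12, whose summit lay 125 bp downstream of a TSS inside the gene. Pcdhgb7, Pcdhga5 (7.93) and Pcdhga12 had higher signals than the thresholded peak of Pcdhga7. Pcdhga11, with a −log10 IDR of 1.26, was the member nearest outside the threshold. The narrowest of the 7 peaks was 182 bp wide, at Pcdhga6, and the widest was 508 bp, at Pcdhgb7. Counting these, 7 of 12 γA, 4 of 6 γB and 2 of 5 C-type genes had a promoter peak in the pseudoreplicated list, against 57.3% of all protein-coding genes. The γA share, 58.3%, was near that of all protein-coding genes.

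The ranked list gives the −log10 p of each peak in 2 inputs, and each of the 13 γ promoter peaks had a value in both. Pcdhgc3 had 185.6 in input 1 and 133.7 in input 2, and Pcdhgc4 had 83.1 and 93.7. Pcdhgb6 had 72.8 and 81.6, Pcdhgb5 44.4 and 40.3, and Pcdhgb4 55.7 and 34.96. Pcdhga7 had 12.6 in each input. Among the 7 peaks below the IDR threshold, Pcdhgb7 had the highest values but also the largest difference between inputs, with 49.2 in input 1 and 22.2 in input 2. Pcdhga1 and Pcdhga6 were lowest, with 8.72 and 9.65 in input 1 and 6.10 each in input 2. Input 1 had the higher value at 8 of the 13 peaks and input 2 at 4. Whether these inputs were the technical replicates or splits of the reads is not given in the sources used here, so the differences are no measure of replicate error.

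**Figure D3:**
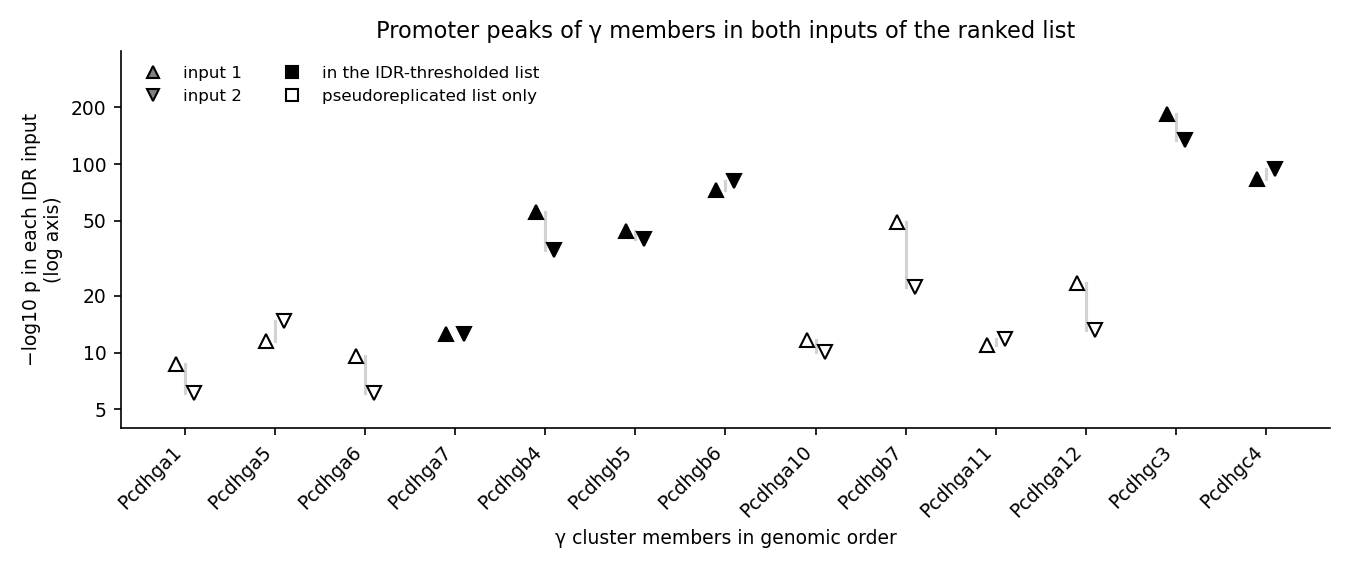
The −log10 p of the promoter peaks of 13 γ members in input 1 (upward triangles) and input 2 (downward triangles) of the ranked list, on a log axis, in genomic order. Filled symbols are peaks of the IDR-thresholded list and open symbols peaks of the pseudoreplicated list alone. Pcdhgc3 stands highest in both inputs, and Pcdhga1 and Pcdhga6 lowest.

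Pcdhga7 was the first γ member in genomic order with a thresholded promoter peak. Of the 8 members upstream of it, 3 had a peak in the pseudoreplicated list (Pcdhga1, Pcdhga5 and Pcdhga6), and Pcdhga2, Pcdhga3, Pcdhgb1, Pcdhga4 and Pcdhgb2 had none. From Pcdhga7 on, the members without any listed promoter peak were Pcdhga8, Pcdhga9 and Pcdhgc5. This division was made by the peaks themselves, so nothing is read from it about placement along the cluster. Neighbouring γ members began 4131 bp apart or more, with a median of 5.35 kb, so the windows around neighbouring 5′ ends did not meet.

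The other peaks of the γ window lay at its edges and between first exons. Taf7, an intronless gene for a subunit of the general transcription factor TFIID, lies between the β and γ clusters and had the highest signal of the whole region (chr18:37643695-37644655, 23.0, −log10 p 705.5). A peak between Pcdhga12 and Pcdhgc3 (chr18:37800827-37801234, signal 16.7) had its summit 5.39 kb upstream of the Pcdhgc3 start and away from any annotated TSS. A peak over the first shared γ exon (chr18:37824910-37825846, signal 10.8) had its summit inside that exon (37825021-37825079) and 334 bp from a TSS of the transcript Gm38182. The other shared exons had no peak, with the nearest thresholded summits 8.19 and 12.4 kb away. The shared exons of the α cluster had none within 353.1 kb.

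Downstream of the γ cluster, where control elements of the β and γ promoters have been described in the mouse, 4 thresholded peaks lay inside Diaph1, which encodes a formin that nucleates actin filaments. The peak nearest the cluster (chr18:37852113-37852721) had a signal of 17.2, and its summit lay 1123 bp from an annotated TSS inside Diaph1. The others were at 37877229-37878179 with a signal of 6.98, at 37880110-37880541 with 6.43 and at 37883450-37883847 with 16.2. The last had the highest −log10 p of the 4, 253.6. Diaph1 itself had a promoter peak of signal 19.4 at its 5′ end, which lies outside the 50 kb flank. No information in peak lists ties these sites to any promoter.

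Apart from the members, 31 gene models have a TSS in the clusters or their flanks. Of these, Taf7, Diaph1, Pcdhgb8 and Gm38182 had a thresholded promoter peak. The antisense gene Gm37118 at Pcdhga1, the transcript Gm26672 around Pcdhga10 and the antisense gene BC037039 at Pcdhgc3 had one in the pseudoreplicated list alone. None of the 10 antisense genes had a thresholded promoter peak.

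**Figure D4:**
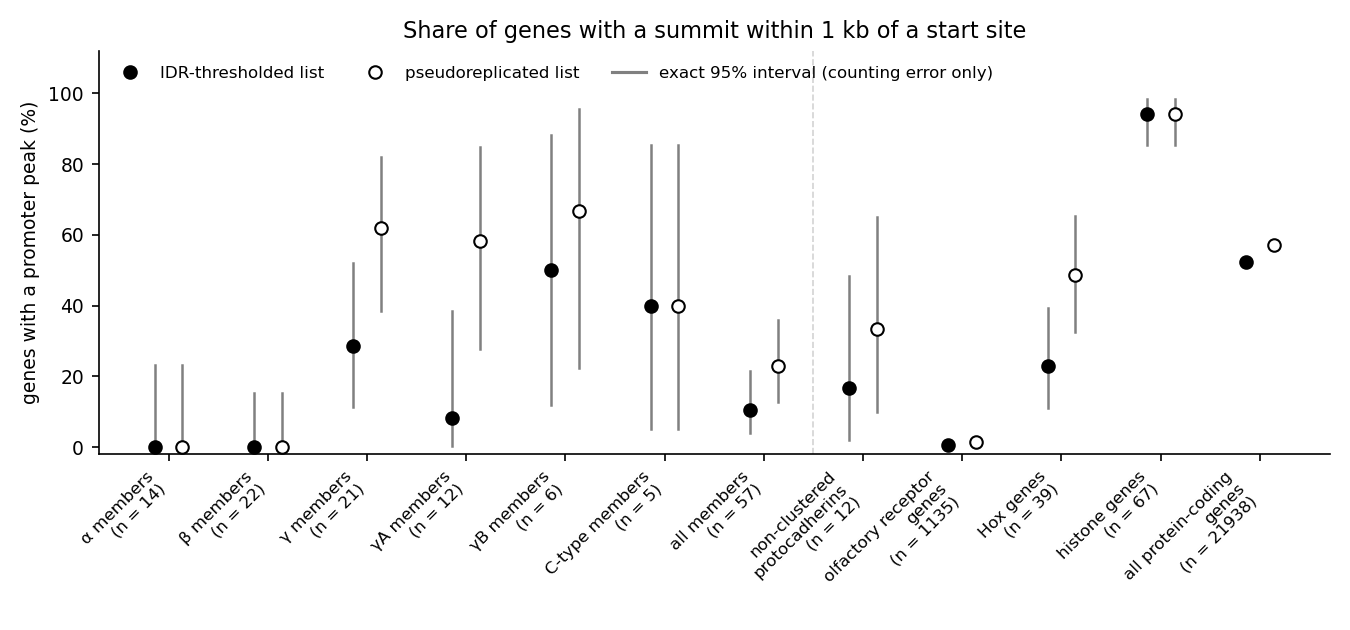
Share of genes with a promoter peak (y axis, percent) in the IDR-thresholded list (filled) and the pseudoreplicated list (open), with exact 95% intervals for counting error (grey lines), for the members by cluster and type (left of the dashed line) and for other families and all protein-coding genes (right). The α and β members stand at 0 in both lists, and the γ members at 28.6% and 61.9%.

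By cluster, the share of γ members with a thresholded promoter peak was 28.6% (11.3 to 52.2%), against 0 of 36 α and β members (0 to 9.74%). The share of all protein-coding genes in that list was 52.2%, above the γ share. In the pseudoreplicated list the γ share was 61.9% (38.4 to 81.9%), which is near the 57.3% of all protein-coding genes. Other tandem families spanned a wide range around the thresholded 52.2% in the same cells. Of 1135 olfactory receptor genes, 8 had a thresholded promoter peak (0.705%). Of 39 Hox genes, 9 did (23.1%), and of 67 replication-dependent histone genes, 63 did (94.0%). The non-clustered protocadherins lie outside these clusters and share the cadherin repeats but not the first-exon arrangement. Pcdh1 and Pcdh12 among them also lie on chromosome 18, with 5′ ends at 38212053 and 38284402. A thresholded promoter peak was found at 2 of the 12 genes, Pcdh1 (signal 16.4) and Pcdh17 (12.6). Pcdh7 and Pcdh19 joined them in the pseudoreplicated list with signals of 4.02 and 4.38, for 4 of 12.

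The sequence around the members' 5′ ends was compared with these counts. The CpG ratio, the number of CpG dinucleotides over that expected from base composition, was taken in 500 bp on either side of the 5′ end of each gene. Its median was 0.682 in the α members, 0.378 in the β members and 0.594 in the γ members, against 0.552 in all protein-coding genes. The α promoters were the most alike, between 0.564 and 0.749. The β promoters were low, between 0.158 and 0.519, and their median GC content was 41.3%, against 54.7% in all protein-coding genes. Over all protein-coding genes, the share with a thresholded promoter peak was 9.89% in the fifth of genes with the lowest CpG ratios and 87.3% in the fifth with the highest, so the members were read beside genes of like ratio. Within the α interquartile range of CpG ratio (0.669 to 0.714), 0 of 6 α members had a thresholded promoter peak, against 965 of 1254 protein-coding genes (77.0%). Within the β interquartile range (0.299 to 0.433), 0 of 10 β members had one, against 672 of 1985 protein-coding genes (33.9%). Within the γ interquartile range (0.550 to 0.686), 5 of 11 γ members did (45.5%), against 70.3% of 3101 protein-coding genes. In the pseudoreplicated list 8 of those 11 γ members did (72.7%), against 76.8% of the same protein-coding genes. The ratio was taken at the 5′ end alone, whereas a promoter peak could lie at any TSS of a gene. Some genes were therefore counted for a peak at a start site whose ratio was not measured. These shares are descriptions, since the members share ancestry, and genes of like ratio are no replicates of them.

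Within the γ cluster, members with a thresholded promoter peak had CpG ratios of 0.592 to 0.797 with a median of 0.675. The 8 members without any listed promoter peak had a median of 0.533, but the ranges overlapped, since Pcdhga8 had 0.744 and no peak. Pcdhgc5, the C-type gene without a peak, had the lowest ratio of the γ cluster, 0.233. Pcdhga12 had 0.318 and a peak in the pseudoreplicated list, and Pcdhga11 had the highest ratio of any member, 0.864, and a peak in that list alone.

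**Figure D5:**
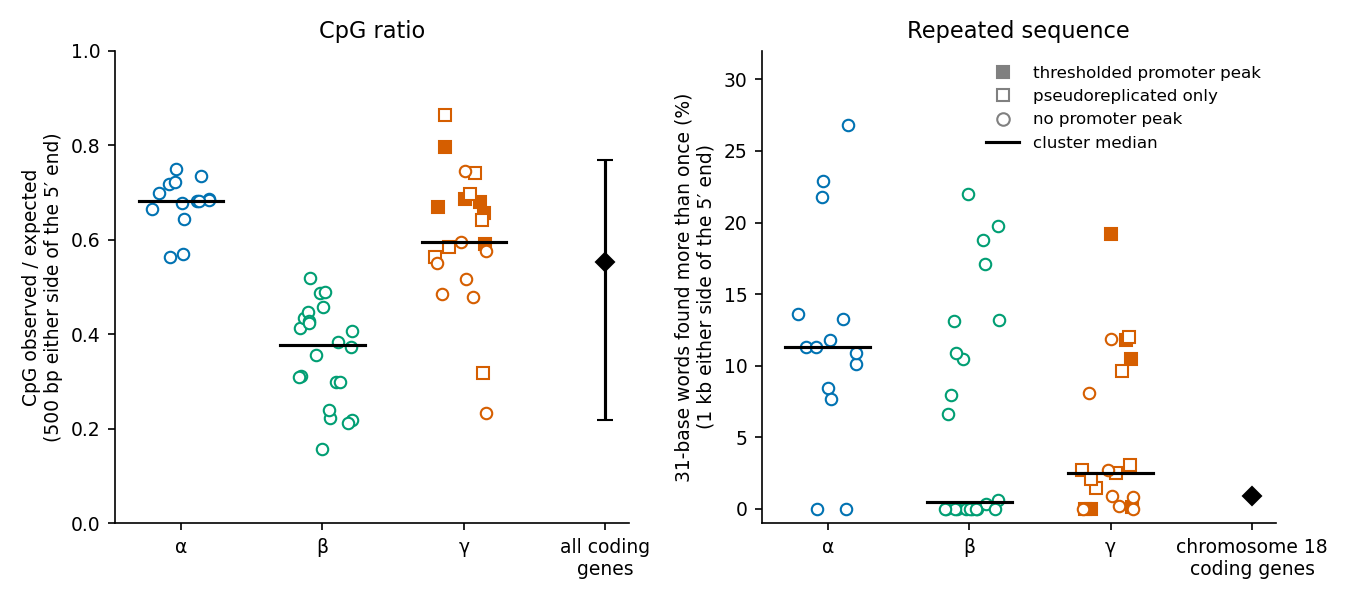
Left: CpG observed over expected in 500 bp on either side of the 5′ end of each member, with cluster medians (lines) and, for all protein-coding genes, the median and interquartile range (diamond and bar). Right: share of 31-base words within 1 kb of the 5′ end that occur more than once in the genome, in percent, with the median of chromosome 18 protein-coding genes (diamond). Filled squares have a thresholded promoter peak, open squares one in the pseudoreplicated list alone, and circles none. The α points lie high and close together at left without any square among them.

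Because the members are copies of one another, sequence that occurs at several places can leave reads that an aligner does not place, and what was done with such reads is not given in the sources used here. The share of 31-base words within 1 kb of the 5′ end that occur more than once in the genome had a median of 11.3% in the α members (0 to 26.8%). It was 0.482% in the β members (0 to 22.0%) and 2.54% in the γ members (0 to 19.2%). The median for protein-coding genes of chromosome 18 was 0.913%. The member with the highest share in the γ cluster, Pcdhgb4 with 19.2%, had a thresholded promoter peak of signal 18.99. Pcdhac1, Pcdhac2, Pcdhb1 and Pcdhb22 had no repeated word in this window and no promoter peak. The same held for Pcdhb2, Pcdhb3, Pcdhb13, Pcdhb14, Pcdhb17, Pcdhb18, Pcdhb19, Pcdhb21, Pcdhgb1 and Pcdhgb2. Pcdhgc3 and Pcdhgc4 had no repeated word and a thresholded promoter peak. Over the whole length of the clusters, words that occur once made up 77.0% of the α cluster, 79.0% of the β cluster and 93.1% of the γ cluster. How much this difference bears on the absence of listed peaks was not tested.

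CTCF binding sites at the first exons are a known feature of α and γ promoters in neurons, so matches to the core CTCF consensus were counted on both strands within 500 bp of the 5′ ends. No member had an exact match, against 1.03% of all protein-coding genes. With up to 1 mismatch, 3 of 57 members had one (5.26%), Pcdha5, Pcdhb8 and Pcdhgb1, against 11.9% of all protein-coding genes, and none of these 3 had a listed promoter peak. Of the 14 thresholded peaks of the γ window, 2 held a match with up to 1 mismatch within 100 bp of the summit. That share is near the 17.0% of all 34610 thresholded peaks. Both of these γ window peaks lie inside Diaph1, at chr18:37852113-37852721 (1 mismatch) and chr18:37883450-37883847 (exact), and both matches are on the minus strand. Another exact match on the minus strand lay at the Diaph1 peak of the pseudoreplicated list alone (chr18:37887097-37887303, signal 4.13). The consensus is strict, and no match says only that these letters are absent from the window.

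Genes listed for promoter choice and silencing had promoter peaks throughout: 22 of 22, against 52.2% of all protein-coding genes. Whether each of them acts on the protocadherin promoters was not tested. They included Ctcf (signal 8.69), the cohesin subunits Rad21 (19.3), Smc1a (21.4) and Smc3 (21.1), and the loader gene Nipbl (7.34), lowest of the list. Among genes tied to silencing, Smchd1 had 10.7, its partner Lrif1 32.6, the de novo DNA methyltransferase gene Dnmt3b 10.1, the maintenance enzyme gene Dnmt1 23.1 and the H3K9 methyltransferase gene Setdb1 18.9. A promoter peak is no measure of how much of a protein a cell holds, and most of these genes serve many loci in all cells. The highest promoter summit of Dnmt1 lay at a start site inside the gene, 6930 bp from its 5′ end. Those of Stag1, Trim28, Wiz, Tet1 and Tet3 also lay at such start sites, 17403 to 45541 bp from the 5′ end.

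Genes for partners of the proteins had promoter peaks at 15 of 16, against 52.2% of all protein-coding genes. The exception was Ret, a receptor tyrosine kinase that associates with protocadherins in neurons of the mouse. The highest signals were at Nckap1l (32.3), the blood-cell subunit of the WAVE actin-regulating complex, and Ncstn (26.1), a subunit of the γ-secretase that cleaves protocadherins. Adam10, the protease that sheds their extracellular part, had 20.1, and the kinase genes Ptk2b and Fyn, which the cytoplasmic tails are known to engage, had 15.8 and 13.5. Neuronal marker genes, listed because the clusters are best known from neurons, had promoter peaks at 5 of 10. They were Syn1 (22.8), Dlg4 (19.1), Gad2 (11.7), Map2 (11.4) and Tubb3 (7.70), while Rbfox3, Snap25, Slc17a7, Neurod1 and Stmn2 had none. That share is near the 52.2% of all protein-coding genes. The Dlg4 summit lay at a start site inside the gene, 12368 bp from its 5′ end.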

How the data were processed

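The authors deposited 3 ATAC-seq peak lists on mm10 (IDR-thresholded, pseudoreplicated and IDR-ranked), and per the file listings they rest on an alignment shared by both libraries. The aligner, caller and read-end shift were not given in the sources used here. Each deposited line gives an interval, a summit, a signal (the authors' enrichment value, its background not stated, used here only within a list) and a −log10 p. The deposited ranked list adds, as score columns, a −log10 IDR and the −log10 p of 2 inputs.

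Lines of the same interval were counted as 1 peak (34610 thresholded, 58871 pseudoreplicated). A summit within 1 kb of any TSS of a gene in GENCODE M21 (GRCm38.p6, 21 chromosomes) made a promoter peak. A signal percentile is the share of peaks of that list with a lower signal. Sequence properties came from the reference genome. Python 3.11.15, pandas 2.3.3, numpy 2.4.6, scipy 1.17.1 and numba 0.67.0 were used, and functions were tested on simulated data. Members and lists were chosen with earlier results of these data known. Named genes were every member with a promoter peak, the C-type genes, the first and last of each cluster, non-member genes in the region and the lists. With 1 biological sample no test was possible. Alternatives changed the list, cutoffs, TSS definition, windows and flanks.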

Additional observations from a re-analysis of the deposited data

How the results depend on the processing

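The 0 counts of α and β members and of peaks over their windows held under every alternative run. The 6 members with a promoter peak stayed 6 with TSS windows of 500 or 2500 bp, 5′ ends only, TSSs of protein-coding transcripts only, interval overlap, the highest summit of each interval only, or the nearest TSS required to be the gene's own. For members, that last setting left out TSSs of other members, but the nearest TSS of each of the 6 summits was its own gene's. Members with a promoter peak were 13 with the pseudoreplicated list and 13 with the ranked list, which was added after seeing the data, all of the γ cluster. With peaks at or above the median signal they were 5, without Pcdhga7, and with at least the median −log10 p they were 3, Pcdhgb6, Pcdhgc3 and Pcdhgc4. The share of all protein-coding genes ran from 38.9% with peaks at or above the median signal to 57.3% with the ranked list. Peaks over the γ window and over all clusters (14) were 24 with the pseudoreplicated or ranked list, 6 with at least the median −log10 p, and 31 when every line was counted. Without flanks the γ cluster held 9. No paired analysis was possible because both libraries were pooled in each list, and for the same reason neither library could be left out. Depth is unknown and limits what could be listed.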
